A study of Homo sapiens with 12 samples.

Results

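The nuclear genes of the mitochondrial respiratory chain were followed through TNFα-induced necroptosis in HT-29 cells, an established human colon adenocarcinoma line. The members were all gene symbols of the deposited tables that begin as the subunits of complexes I to V do (NDUFA, NDUFB, NDUFC, NDUFS or NDUFV with a number, SDHA to SDHD, UQCR, COX4 to COX8, ATP5) and had a mean of the 4 group means of at least 10 normalized reads. The rule matched 88 of 26485 symbols and 80 passed, with 37 in complex I, 4 in complex II, 10 in complex III, 11 in complex IV and 18 in complex V. The rule goes by name, so 6 of the 80 are no structural subunit: UQCRBP1 and ATP5EP2 are processed pseudogenes, UQCRHL is a copy of UQCRH, ATP5S and ATP5SL are related proteins outside the enzyme, and COX7A2L is a factor of respiratory supercomplexes. The member nearest above the threshold was UQCRBP1 with a mean of 14.1 normalized reads, and the symbol nearest below it was ATP5L2 with 3.49.

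All cells were cultured alike and treated for 8 h before polyA RNA was sequenced, in 3 libraries a group and 12 in all. TSZ+Nec-1s cells received TNFα at 10 ng/ml with SM-164 at 50 nM, zVAD at 20 µM and Nec-1s at 10 µM, and TSZ cells the same without Nec-1s. TNFα cells received 10 ng/ml TNFα alone, and DMSO cells the vehicle. SM-164 removes inhibitor of apoptosis proteins, zVAD is a caspase inhibitor and Nec-1s is one of the kinase RIPK1, so TSZ drives the cells into necroptosis and Nec-1s holds it back. The comparisons ask which expression changes accompany necroptosis and which are prevented by Nec-1s. Whether a group's libraries stem from separate cultures is not stated, so p-values measure the spread between these libraries, which may be technical.

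The respiratory chain lies in the inner mitochondrial membrane. Complex I takes electrons from NADH and complex II from succinate, complex III passes them to cytochrome c, complex IV hands them to oxygen, and complex V, the ATP synthase, makes ATP from the resulting proton gradient. Complexes I, III, IV and V are built from a few subunits encoded in mitochondrial DNA and many encoded in the nucleus, and complex II is wholly nuclear. The transcription factors NRF1 and GABP, among others, are known to bind the promoters of many of the nuclear genes. Mitochondrially encoded mRNAs were not analysed here.

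Values per library were solved from the deposited group means, and the libraries of a group carry the letters a, b and c, which match nothing between groups. The estimated totals were 8825061 to 12730029 reads a library. Values are normalized reads, that is reads divided by the library's size factor. The epithelial keratin KRT19 averaged 7893, 14388, 8045 and 7374 normalized reads in TSZ+Nec-1s, TSZ, TNFα and DMSO cells, and of 7 leukocyte markers PTPRC and CD3E had no read in any library. ITGAM averaged 117 reads in TSZ cells and 9.33 in DMSO cells (log2 3.70, adjusted p = 6e-06), CD14 12.6 and 80.8 (log2 -2.65, adjusted p = 9.1e-06), and LYZ 19873 and 14922. Summed over the list, 10 colon epithelium markers, 8 of them at a mean of 10 or more, came to 34705 to 35540 reads in TSZ libraries and 17039 to 18770 in DMSO libraries. KRT8 and KRT18, whose reads were not solved per library, are left out of the sum. The sum of the leukocyte markers, nearly all of it LYZ, was 19321 to 20760 in TSZ libraries and 14863 to 15195 in DMSO libraries. That of 7 fibroblast and endothelial markers was 213 to 488 and 53.4 to 198. The part of these shifts in the results was not tested. In 3 libraries, DMSO b, TNFα c and TSZ c, the deviation of genes from their group mean fell with transcript GC content (Spearman's rho across 11507 genes -0.81, -0.61 and -0.75), while rho lay between -0.15 and 0.78 in the other 9. Deviations cancel out within a group, and DMSO a (0.78), TSZ a (0.59), TSZ b (0.55) and DMSO c (0.54) went the other way. The values cannot tell which libraries of a group are off. Libraries that deviate with GC is the name used here for the 3 with a rho below -0.5. Counts over the members are therefore given also without these 3 libraries. In a bulk sample, fewer cells and less RNA per cell cannot be told apart.

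In TSZ cells the respiratory chain mRNAs were shifted upward as a group relative to the other genes, most of all those of complex IV. Compared with DMSO, 33 of the 80 members were called higher and 2 lower (limma, adjusted p under 0.05), where 25.9% and 24.2% of the 11710 genes tested were called higher and lower. The median log2 fold change of the members was 0.26, against -0.02 for all genes. Without the 3 libraries that deviate with GC, 39 members were higher and 5 lower, where 3803 and 3370 of all genes were, and the median was 0.20. Leaving out TSZ a alone brought the count of higher members to 20, and the count of lower members was 4 without DMSO b and 1 without DMSO a or DMSO c. For fits without 1 library, here and below, counts over all genes are not given. The direction of the absolute change depends on the scaling. With libraries scaled to their total reads the median was -0.15, beside a median of -0.43 for all genes. There 1 member was higher and 18 lower, where 1644 and 5685 of all genes were. With quantile normalization the median was 0.06, beside -0.12. There 7 members were higher and 8 lower, where 2342 and 3380 of all genes were. The distance of the members' median from that of all genes was 0.28 under the main scaling, 0.28 under total reads and 0.18 under quantile normalization. As a share of all reads the 80 members together took 0.952% ± 0.023 in TSZ cells and 1.04% ± 0.106 in DMSO cells (SD, n = 3 each).

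Level and transcript length moved with this result. Among the other genes with a mean of at least 500 reads and a transcript shorter than 800 bases, 146 in all, the median log2 fold change for TSZ over DMSO was 0.49 and 70.5% were called higher, while the 32 members of that class had a median of 0.36. For transcripts of at least 3000 bases, the median was 0.03 in 10 members and -0.08 in 6220 other genes. Across the 80 members Spearman's rho between transcript length and log2 fold change was -0.33, a description over genes that share the same 6 libraries. The part of length and level in the shift was not tested.

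**Figure D1:**
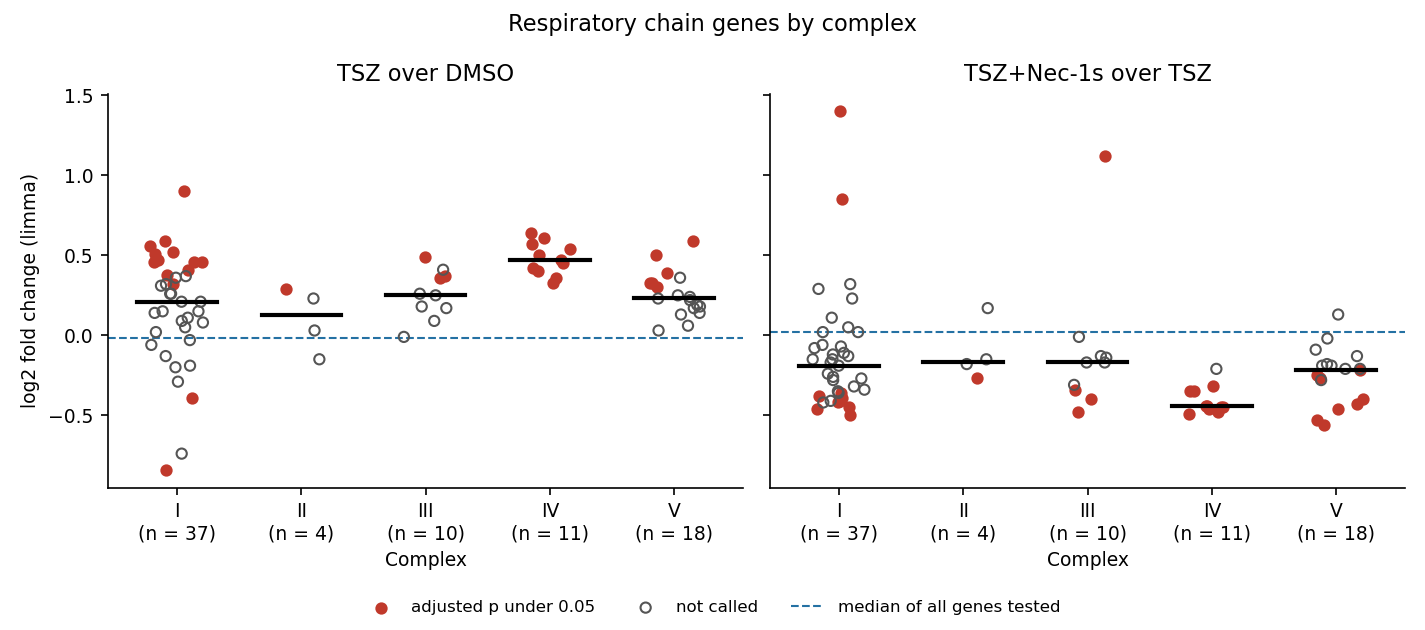
Log2 fold change (limma) of the 80 genes by complex for TSZ over DMSO (left) and TSZ+Nec-1s over TSZ (right); each point is a gene, filled where the adjusted p was under 0.05, bars are medians of the complex and the dashed line is the median of all genes tested. All 11 genes of complex IV lie above 0 on the left, with a median of 0.47, and below 0 on the right, with a median of -0.44; with libraries scaled to total reads the medians of complexes I, II, III and V have the opposite sign in both comparisons.

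Complex IV was the complex whose genes were all called higher in TSZ cells, 11 of 11, with log2 fold changes of 0.33 to 0.64 and a median of 0.47. The other complexes had 12 of 37 higher and 2 lower (complex I, median 0.21), 1 of 4 higher (complex II, 0.13), 3 of 10 higher (complex III, 0.26) and 6 of 18 higher (complex V, 0.23). Of all genes tested 25.9% were called higher and 24.2% lower. Without the 3 libraries that deviate with GC the medians were 0.11, 0.08, 0.17, 0.43 and 0.19 for complexes I to V, and 10 genes of complex IV stayed called. With each library's GC trend removed, 9 of the 11 genes of complex IV were called higher, with a median of 0.47. There 3878 of all genes were called higher, against 3031 in the main fit. With total reads as the scale the medians were -0.20, -0.28, -0.15, 0.06 and -0.18, so complex IV alone kept a positive median, with no gene called. With quantile normalization they were 0.00, -0.15, 0.10, 0.17 and 0.01, and 2 genes of complex IV were called. The median transcript length was 690 bases in complex IV, 696 in complex I and 1048 in complex V. The 146 other genes with at least 500 reads and transcripts under 800 bases had a median log2 fold change of 0.49. Of these 70.5% were called higher, so the median of complex IV was not above that of this class. No test of one complex against another was made.

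**Figure D2:**
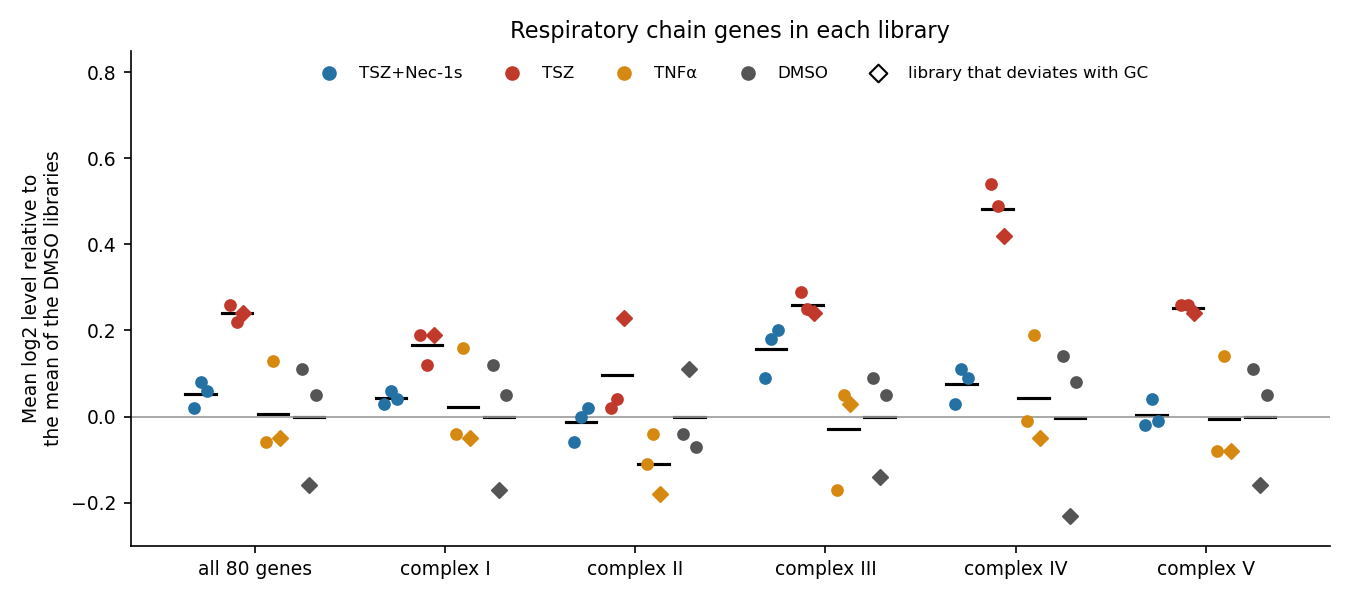
Mean log2 level of the 80 genes and of each complex in every library, relative to the mean of the DMSO libraries; bars are group means, and diamonds mark the 3 libraries that deviate with GC. In complex IV the TSZ libraries lie at 0.42 to 0.54, above every TSZ+Nec-1s (0.03 to 0.11), TNFα (-0.05 to 0.19) and DMSO library (-0.23 to 0.14).

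COX4I1, a subunit that regulates complex IV and joins it early in assembly, had 4408, 4445 and 3949 normalized reads in TSZ cells, against 3247, 2106 and 2981 in DMSO cells. Every TSZ library was above every DMSO library, and the low DMSO value is library b. The fold was 1.56 (log2 0.64, SE 0.14, adjusted p = 0.0022). COX7A2, the isoform of subunit VIIa found in most tissues, had 1322, 1457 and 1237 reads in TSZ cells and 991, 720 and 928 in DMSO cells, with no overlap (log2 0.61, SE 0.13, adjusted p = 0.0013). COX7C, a small subunit of the same enzyme, had 1790, 1861 and 2036 reads in TSZ cells against 1333, 1285 and 1217 in DMSO cells. The groups did not overlap (log2 0.57, SE 0.10, adjusted p = 0.00032). COX6A1, the widely expressed isoform of subunit VIa, averaged 1672 reads in TSZ cells and 1161 in DMSO cells (log2 0.54, adjusted p = 0.0095). All 4 kept their call without any single library, but with total reads as the scale their log2 fold changes were 0.23, 0.20, 0.16 and 0.13 and none was called, and with quantile normalization COX7A2 and COX7C stayed called.

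The remaining genes of complex IV had folds of 1.25 (COX6C) to 1.42 (COX5B), and with total reads as the scale the log2 fold changes of the complex lay between -0.09 and 0.23. The call of COX6C was lost without DMSO b, TSZ a, TSZ c or the 3 libraries that deviate with GC (adjusted p = 0.07, 0.074, 0.08 and 0.063). COX8A, which had the highest level of the complex per kb of transcript (4820 normalized reads per kb in DMSO cells), averaged 3218 reads in TSZ cells and 2381 in DMSO cells (log2 0.45, adjusted p = 0.026). COX6B1, a subunit on the intermembrane side, averaged 2867 and 2182 reads in TSZ and DMSO cells (log2 0.40, adjusted p = 0.027). The calls of COX8A and COX6B1 were lost without DMSO b (adjusted p = 0.063 and 0.073), TSZ a (0.093 and 0.11) or TSZ b (0.074 for both), and COX6B1 was at -0.01 with total reads as the scale. COX7B was at 2386 reads in TSZ cells and 1788 in DMSO cells (log2 0.42, adjusted p = 0.0028), and COX7A2L, the supercomplex factor, at 1215 and 946 (log2 0.36, adjusted p = 0.0043, but -0.05 with total reads as the scale and an adjusted p of 0.17 with the GC trend removed). NDUFA4, first described in complex I and now placed in complex IV, averaged 1460 reads in TSZ cells and 1052 in DMSO cells (log2 0.47, adjusted p = 0.0007), and counting it in complex IV left the median at 0.47. The isoforms of this complex known from muscle, lung or testis were absent or nearly so: COX4I2, COX6A2, COX7B2 and COX8C had no read in any library, COX7A1 averaged at most 1.17 normalized reads and COX6B2 at most 5.40, in TSZ cells.

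**Figure D3:**
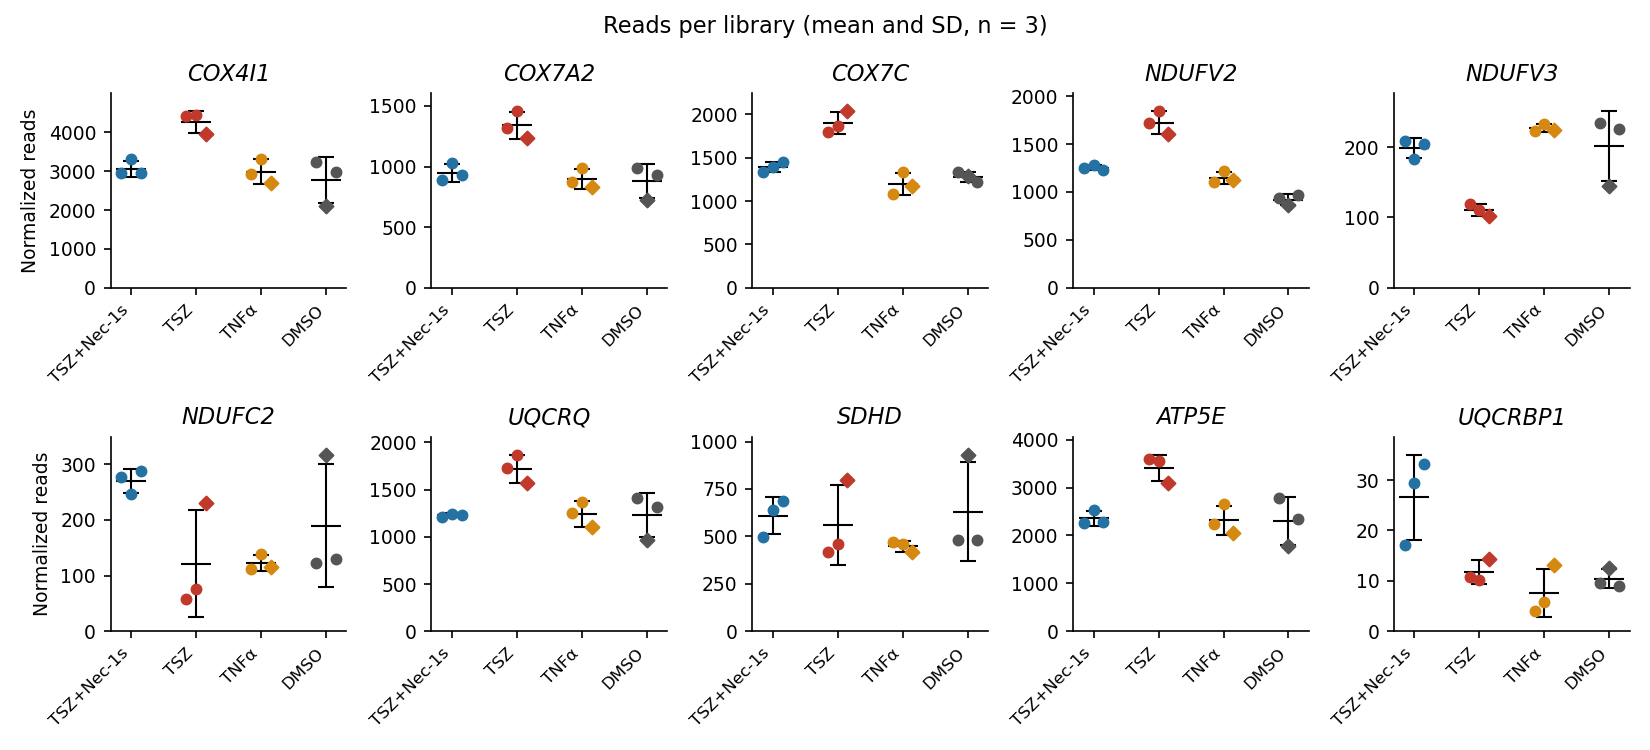
Normalized reads of 10 genes in each library, with the mean and SD of each group (n = 3); diamonds mark the 3 libraries that deviate with GC, and each y axis starts at 0. COX4I1, COX7A2, COX7C, NDUFV2, UQCRQ and ATP5E are highest in TSZ cells and NDUFV3 is lowest there; NDUFC2 and SDHD are high in the diamond libraries of DMSO and TSZ.

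Complex I held the largest changes of single genes, in both directions. NDUFV2, an iron-sulfur subunit of the module that oxidises NADH, had 1721, 1843 and 1607 reads in TSZ cells and 934, 859 and 968 in DMSO cells. All TSZ libraries were far above the DMSO libraries, the fold was 1.87 (log2 0.90, SE 0.09, adjusted p = 2.8e-06), and the call held under every alternative, with a log2 fold change of 0.49 on total reads and 0.64 after quantile normalization. NDUFV3, a small accessory subunit of the same module, went the other way, with 119, 111 and 102 reads in TSZ cells against 234, 145 and 226 in DMSO cells. The groups did not overlap and the fold was 0.56 (log2 -0.84, SE 0.18, adjusted p = 0.0021), a call that also held under every alternative. NDUFV1, the partner of NDUFV2 that binds NADH, was not called (log2 0.31, -0.10 with total reads and -0.03 with quantile normalization), but was without DMSO a or TSZ c (adjusted p = 0.019 and 0.045).

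Of the accessory subunits of the membrane arm, NDUFB2 averaged 715 reads in TSZ cells and 477 in DMSO cells (log2 0.59, adjusted p = 0.0032), and NDUFB6 318 and 218 (log2 0.56, adjusted p = 0.015, but 0.08 without DMSO c). NDUFB2 shares exons with ADCK2 on its strand and with BRAF on the other, and the counting did not use strand. NDUFB9 had the highest level of the complex per kb of transcript (7740 normalized reads per kb in DMSO cells) and averaged 6897 reads in TSZ cells and 5348 in DMSO cells (log2 0.38, adjusted p = 0.028). Its call was lost without DMSO b, TSZ a or TSZ b (adjusted p = 0.07, 0.10 and 0.075), and its sign turned with total reads (-0.03) and with quantile normalization (-0.16). NDUFC2 was among the most uneven genes, with 57.1, 76.7 and 231 reads in TSZ cells and 122, 317 and 130 in DMSO cells, and was not called (log2 -0.74, SE 0.44, adjusted p = 0.18). Its high values are TSZ c and DMSO b, and its exons overlap those of the read-through NDUFC2-KCTD14. NDUFA5 showed the same uneven libraries, with 164, 169 and 415 reads in TSZ cells and 181, 436 and 161 in DMSO cells, and was not called either. NDUFA5, NDUFA4 and NDUFV1 were singled out after their values were seen.

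Complex II, whose 4 subunits also work in the citric acid cycle, had 1 gene called. SDHA, the flavoprotein that oxidises succinate, had 4547, 4434 and 3901 reads in TSZ cells and 4689, 3547 and 4393 in DMSO cells, which overlap (log2 0.03, adjusted p = 0.81). Its sign turned to -0.38 with total reads, to -0.42 with quantile normalization, to -0.08 without DMSO b, and to -0.01 without TSZ a or without the 3 libraries that deviate with GC. SDHB, the iron-sulfur subunit, had 1370, 1330 and 1325 reads in TSZ cells and 1221, 1055 and 1167 in DMSO cells. The groups do not overlap, and the test missed the threshold (log2 0.23, adjusted p = 0.054) but for the fit without DMSO a (0.039). Of the membrane anchors, SDHC had 614, 614 and 699 reads in TSZ cells and 493, 590 and 502 in DMSO cells and was called higher (log2 0.29, SE 0.10, adjusted p = 0.032). That call was lost without DMSO a, DMSO c or TSZ c (adjusted p = 0.093, 0.11 and 0.10) and the sign turned with total reads (-0.13). SDHD, the other anchor, had 418, 460 and 800 reads in TSZ cells and 482, 931 and 480 in DMSO cells, with the high values again in TSZ c and DMSO b (log2 -0.15, adjusted p = 0.67), and turned to 0.16 without DMSO b and to 0.02 without TSZ a.

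In complex III the called genes were UQCRQ, UQCRH and UQCRC1. UQCRQ, a small subunit next to cytochrome b, had 1726, 1867 and 1569 reads in TSZ cells against 1408, 970 and 1319 in DMSO cells, with no overlap (log2 0.49, SE 0.13, adjusted p = 0.0078). UQCRH, the hinge protein that helps cytochrome c1 meet cytochrome c, had 1184, 1213 and 1195 reads in TSZ cells and 1028, 850 and 906 in DMSO cells, again apart (log2 0.37, SE 0.10, adjusted p = 0.0072, but -0.04 with total reads). Its copy UQCRHL, the highest of the complex per kb of transcript (4234 normalized reads per kb in DMSO cells), averaged 1394 reads in TSZ cells and 1169 in DMSO cells and missed the threshold (log2 0.26, adjusted p = 0.056); it was called without DMSO a or DMSO c (0.035 and 0.041). Reads of UQCRH and UQCRHL are nearly identical in sequence, so how they were divided between the pair is uncertain. UQCRC1, a core subunit, averaged 1746 and 1361 reads in TSZ and DMSO cells (log2 0.36, adjusted p = 0.045), a call lost without DMSO b, DMSO c, TSZ a or TSZ b (adjusted p = 0.13, 0.08, 0.16 and 0.12) and a sign that turned with total reads (-0.05). The Rieske iron-sulfur protein UQCRFS1 had a log2 fold change of -0.01 and was not called, with 0.06 without TSZ c and -0.42 with total reads.

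In complex V, ATP5E, ATP5J, ATP5J2, ATP5L, ATP5O and the pseudogene ATP5EP2 were called higher. The α, β and γ subunits ATP5A1, ATP5B and ATP5C1 were not (log2 0.06, 0.25 and 0.19, but -0.35, -0.17 and -0.22 with total reads). ATP5E, the epsilon subunit of the central stalk, had 3594, 3548 and 3100 reads in TSZ cells and 2781, 1776 and 2346 in DMSO cells, with no overlap (log2 0.59, SE 0.15, adjusted p = 0.0047, but 0.13 with the GC trend removed). ATP5EP2, whose sequence is close to that of ATP5E and whose reads may come from it, averaged 159 reads in TSZ cells and 113 in DMSO cells (log2 0.50, adjusted p = 0.035), and its call was lost without DMSO b, DMSO c or TSZ a (adjusted p = 0.10, 0.088 and 0.14). ATP5J2, subunit f of the membrane part, averaged 2184 reads in TSZ cells and 1689 in DMSO cells (log2 0.39, adjusted p = 0.023, but 0.079 without TSZ a and -0.02 on the log2 scale with total reads). ATP5J, coupling factor 6 of the side stalk, averaged 672 and 534 reads (log2 0.33, adjusted p = 0.033) and of the 6 fits without a DMSO or TSZ library was called only in that without DMSO b (0.054 to 0.11 in the others), with -0.08 on total reads. ATP5B, the catalytic β subunit and the highest of the complex per kb (5477 normalized reads per kb in DMSO cells), had 11828, 11969 and 10428 reads in TSZ cells against 10399, 8365 and 10137 in DMSO cells. These groups do not overlap, but the test missed the threshold (log2 0.25, adjusted p = 0.051); it passed without DMSO a or TSZ c (0.03 and 0.024) and turned to -0.17 with total reads and to -0.31 with quantile normalization.

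The 3 genes that encode the same subunit c of the rotor were not called for TSZ over DMSO. ATP5G2 had 2143, 1941 and 1767 reads in TSZ cells and 1719, 1167 and 1743 in DMSO cells (log2 0.36, adjusted p = 0.056), and was called without DMSO a, DMSO c or TSZ c (0.032, 0.035 and 0.042). ATP5G1 averaged 919 reads in TSZ cells and 852 in DMSO cells (log2 0.13, adjusted p = 0.50), and ATP5G3 1972 and 1757 (log2 0.18, adjusted p = 0.19). All 3 were negative with total reads (-0.06, -0.28 and -0.24 for ATP5G2, ATP5G1 and ATP5G3), ATP5G1 and ATP5G3 were at -0.05 and -0.13 with quantile normalization, and ATP5G1 was at -0.06 without DMSO b.

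**Figure D4:**
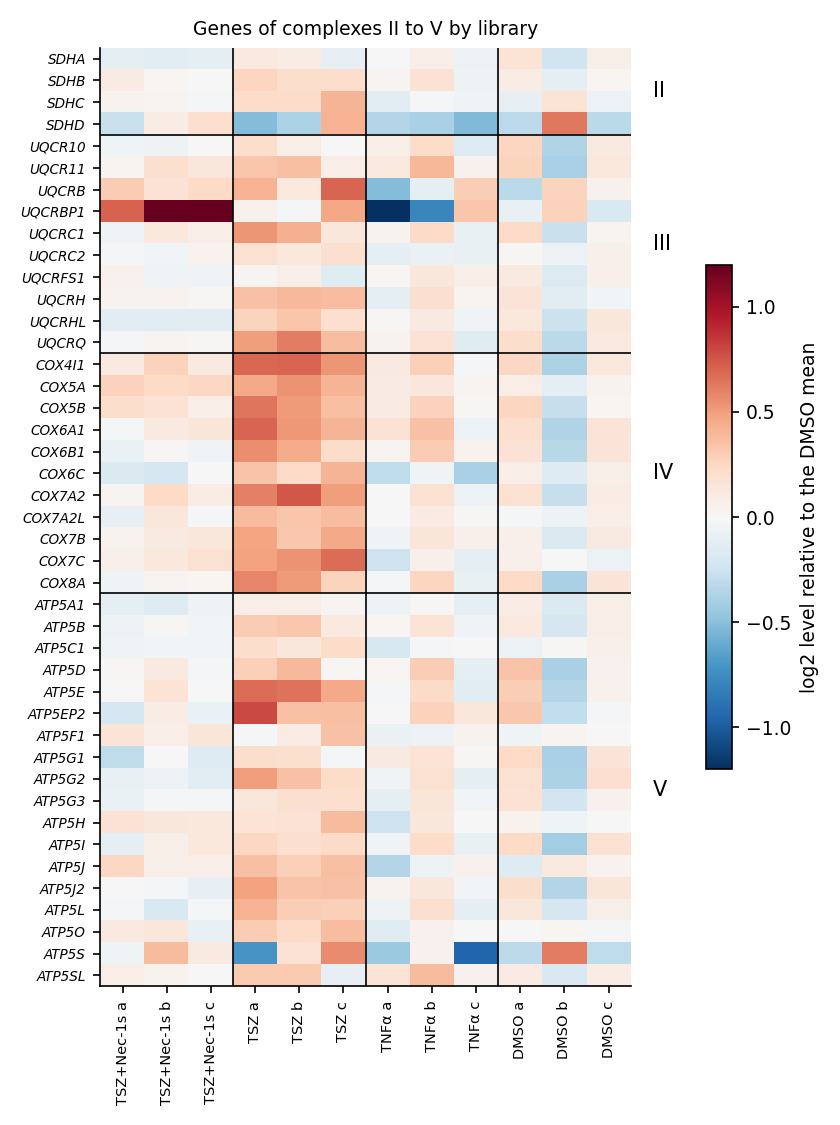
Log2 level of the genes of complexes II to V (rows) in each of the 12 libraries (columns), relative to the mean of the DMSO libraries; red is higher and blue lower, and the scale is limited to 1.2 in both directions. The complex IV block is red in all 3 TSZ libraries, and DMSO b lies below DMSO a and c in 10 of the 11 complex IV rows.

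With Nec-1s added to TSZ, the members lay lower again. In TSZ+Nec-1s over TSZ, 30 of the 80 members were called lower and 3 higher, where 22.5% and 19.8% of all genes were called lower and higher, and the median was -0.25 against 0.02 for all genes. This comparison shares its TSZ libraries with that of TSZ over DMSO, so the opposite signs are not independent of each other. Complex IV had 10 of 11 genes lower, all but COX5A (median -0.44), complex I 8 lower and 2 higher (-0.19), complex II 1 lower (-0.17), complex III 3 lower and 1 higher (-0.17) and complex V 8 lower (-0.22). The 146 other genes with at least 500 reads and transcripts under 800 bases had a median of -0.43. Of that class 59.6% were called lower, and its 32 members had a median of -0.34. The part of length and level in the fall was not tested. Without the 3 libraries that deviate with GC, 53 members were lower and 7 higher, where 3734 and 3635 of all genes were. With each library's GC trend removed, 8 of the 11 genes of complex IV were called lower. There 3503 of all genes were called lower, against 2638 in the main fit. The count of lower members was 12 without TSZ a, 16 without TSZ b, and 13, 12 and 17 without TSZ+Nec-1s a, c and b, and that of higher members was 1 without TSZ a or TSZ b. With total reads as the scale 14 members were higher and none lower by limma, where 4941 and 1368 of all genes were (medians 0.09 for the members and 0.35 for all genes). With quantile normalization 6 were higher and 4 lower, where 2574 and 2074 of all genes were (-0.06 and 0.07).

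Among single genes, COX7A2 averaged 949 reads in TSZ+Nec-1s cells and 1339 in TSZ cells (log2 -0.49, SE 0.12, adjusted p = 0.0067), with the same call without any single library. COX4I1 had 2951, 3304 and 2946 reads in TSZ+Nec-1s cells, below all TSZ libraries (log2 -0.48, adjusted p = 0.016). Leaving out TSZ a, TSZ b, TSZ+Nec-1s a or TSZ+Nec-1s c moved its adjusted p to between 0.052 and 0.056. COX6A1 (log2 -0.46, adjusted p = 0.026) lost its call in 5 of 6 such fits, at 0.051 to 0.10, all but that without TSZ c. UQCRQ had 1204, 1245 and 1229 reads in TSZ+Nec-1s cells (log2 -0.48, adjusted p = 0.011), and UQCRHL was lower as well (log2 -0.40, adjusted p = 0.0094). ATP5E averaged 2355 reads in TSZ+Nec-1s cells and 3414 in TSZ cells (log2 -0.53, adjusted p = 0.011), NDUFA2, an accessory subunit near the NADH module, 592 and 838 (log2 -0.50, adjusted p = 0.0097). ATP5EP2 was lower (log2 -0.56, adjusted p = 0.024, but 0.11, 0.08 and 0.068 without TSZ a, TSZ+Nec-1s a or TSZ+Nec-1s c), and so was ATP5G2 (log2 -0.46, adjusted p = 0.022, called only with TSZ c removed among the fits without a library, 0.052 to 0.089 in the others). SDHC was lower too (log2 -0.27, adjusted p = 0.048), in none of the 6 fits that leave out a library (0.067 to 0.13), and was at 0.07 with total reads.

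The 3 higher genes were NDUFV3, NDUFC2 and UQCRBP1. NDUFV3 had 209, 183 and 205 reads in TSZ+Nec-1s cells, each above every TSZ library, and a fold of 1.80 over TSZ (log2 0.85, SE 0.18, adjusted p = 0.0025). NDUFC2 had 276, 246 and 287 reads in TSZ+Nec-1s cells against 57.1, 76.7 and 231 in TSZ cells (log2 1.40, SE 0.42, adjusted p = 0.016), and its call was lost without TSZ a or TSZ b (0.093 and 0.077). UQCRBP1, the pseudogene of UQCRB, had 17.1, 29.5 and 33.2 reads in TSZ+Nec-1s cells and 10.7, 10.2 and 14.4 in TSZ cells (log2 1.12, adjusted p = 0.029). It lost its call without TSZ a, TSZ b, TSZ+Nec-1s b or TSZ+Nec-1s c (0.083, 0.092, 0.078 and 0.10). These 3 changes kept their sign and call with total reads and with quantile normalization.

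TNFα alone called none of the 80 members in either direction by limma, where 3.1% of all genes were called higher and 1.08% lower, with 1 member at an unadjusted p under 0.05. That member was NDUFV2, with 1102, 1219 and 1126 reads in TNFα cells, each above the DMSO libraries (log2 0.32, SE 0.09, adjusted p = 0.071). After removal of each library's GC trend 3 members were called higher, where 1285 of the 11710 genes were. Without the 3 libraries that deviate with GC 1 member was, where 824 of all genes were. TSZ over TNFα gave 26 members higher and 1 lower, where 22.6% and 21.6% of all genes were called higher and lower, with 9 of 11 in complex IV, and the median was 0.26. The count of higher members was 15 without TNFα a. It was 2 with total reads (11 lower, median -0.08), where 1468 of all genes were higher and 4966 lower. With quantile normalization it was 8 (8 lower), where 2046 and 3053 of all genes were higher and lower. The gene called lower under the main scaling was NDUFV3, at 111 reads in TSZ cells and 227 in TNFα cells (log2 -1.04, adjusted p = 0.00047).

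TSZ+Nec-1s cells lay close to the DMSO and TNFα cells. Over DMSO, 2 members were called higher and none lower by limma, where 7.1% and 5.75% of all genes were called, with 6 members at an unadjusted p under 0.05. Those 2 were NDUFV2, at 1249, 1280 and 1230 reads in TSZ+Nec-1s cells and above all DMSO libraries (log2 0.45, SE 0.09, adjusted p = 0.0049), and UQCRBP1, at a mean of 26.6 reads in TSZ+Nec-1s cells and 10.4 in DMSO cells (log2 1.30, adjusted p = 0.036). The count of lower members was 10 without DMSO b, and without the 3 libraries that deviate with GC 10 members were higher and 21 lower, where 3147 and 2703 of the 11710 genes were. Over TNFα, only UQCRBP1 was called higher and none lower by limma, where 1.05% and 0.239% of all genes were called higher and lower, with 4 members at an unadjusted p under 0.05. UQCRBP1 averaged 26.6 and 7.62 reads in TSZ+Nec-1s and TNFα cells (log2 1.86, adjusted p = 0.044), and without TNFα a, TNFα b, TSZ+Nec-1s b or TSZ+Nec-1s c no member was called. Without the 3 libraries that deviate with GC, 10 members were higher and 14 lower over TNFα, where 2583 and 2242 of the 11710 genes were.

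The promoters were read because the members are known to share regulators. RefSeq (GRCh38.p14) gave a single transcription start for 54 of the 80 members, and the 250 bases before the start were searched on both strands for exact matches to GCGCANGCG (NRF1), CCGGAAGT (the ETS family, which holds GABP), AAGATGGCG (YY1), GGGGCGGGG (SP1), TGANTCA (AP-1) and GGGNTTTCC (NF-κB). Shown are the last 100 bases before the start of COX4I1, the gene of complex IV with the largest change, of COX5B, COX8A, UQCRH and UQCRQ, which rose in TSZ cells and hold an ETS match, of NDUFV2 and NDUFV3, which changed in opposite directions, and of SDHA, which was not called and holds most NRF1 matches. Capitals mark matches to the searched letters on either strand. COX4I1 and NDUFV3 hold no match in the whole 250 bases, and SDHA holds 4 to the NRF1 letters, of which 2 lie in the printed bases. In hg38 coordinates the runs lie for COX4I1 at chr16:85799595-85799694, plus strand, COX5B at chr2:97645962-97646061, plus strand, COX8A at chr11:63974520-63974619, plus strand, UQCRH at chr1:46303598-46303697, plus strand, UQCRQ at chr5:132866542-132866641, plus strand, NDUFV2 at chr18:9102599-9102698, plus strand, NDUFV3 at chr21:42893209-42893308, plus strand and SDHA at chr5:218220-218319, plus strand.
COX4I1: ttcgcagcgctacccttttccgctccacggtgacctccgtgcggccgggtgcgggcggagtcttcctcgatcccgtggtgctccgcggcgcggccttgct
COX5B: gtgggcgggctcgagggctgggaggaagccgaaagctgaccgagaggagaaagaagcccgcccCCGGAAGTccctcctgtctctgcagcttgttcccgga
COX8A: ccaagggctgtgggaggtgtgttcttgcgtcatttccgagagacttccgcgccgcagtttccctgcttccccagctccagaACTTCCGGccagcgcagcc
UQCRH: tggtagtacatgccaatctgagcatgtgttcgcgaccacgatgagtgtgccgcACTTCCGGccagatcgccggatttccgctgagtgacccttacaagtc
UQCRQ: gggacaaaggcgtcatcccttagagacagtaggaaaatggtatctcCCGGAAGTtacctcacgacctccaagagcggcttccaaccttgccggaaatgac
NDUFV2: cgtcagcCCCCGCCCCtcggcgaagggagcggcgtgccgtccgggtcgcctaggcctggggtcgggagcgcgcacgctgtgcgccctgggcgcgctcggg
NDUFV3: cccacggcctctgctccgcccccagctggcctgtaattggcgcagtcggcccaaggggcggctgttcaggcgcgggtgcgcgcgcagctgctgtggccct
SDHA: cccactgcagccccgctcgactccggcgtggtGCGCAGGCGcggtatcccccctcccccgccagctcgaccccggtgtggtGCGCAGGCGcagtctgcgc

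NRF1 letters were found in 16 of the 54 promoters (29.6%), against 15.2% of 6635 promoters of genes tested and 7.04% of all 22114 with a single start. By complex they were in 7 of 27 in complex I, 2 of 3 in complex II, 3 of 7 in complex III, 1 of 8 in complex IV and 3 of 9 in complex V. Of the 16 members with the match 5 were called higher in TSZ over DMSO, with a median log2 fold change of 0.24, and of the 38 without it 19 were higher and 1 lower, with a median of 0.32. Over all genes tested 25.9% were called higher and 24.2% lower. ETS letters were in 8 of 54 (14.8%), against 8.91% of promoters of genes tested, namely in ATP5H, COX5B, COX8A, NDUFA13, SDHD, UQCR11, UQCRH and UQCRQ, of which 5 were called higher (median 0.41), against 19 of the 46 without (median 0.25). SP1 letters were in 8 of 54 (14.8%), against 29.3% of promoters of genes tested. Of these, 5 of 8 were called higher (median 0.48), against 19 of the 46 without (median 0.26). AP-1 letters were in 3 of the 54 promoters (5.56%, against 3.77% of promoters of genes tested) and NF-κB letters in 1 (1.85%, against 2.17%). No YY1 match was found, where 1.12% of promoters of genes tested hold one. SDHD and UQCR11 hold both NRF1 and ETS letters, and COX5B holds ETS and SP1 letters. UQCRFS1 holds NRF1 and SP1 letters, and NDUFS6 holds NRF1, SP1 and AP-1 letters. Such promoters count under each. These are matches of letters, not sites shown to be bound.

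Further genes of mitochondrial respiration were measured beside the members, and no list was tested against another. Of 48 assembly factors tested, which insert cofactors and put the subunits together, 19 were called lower and 4 higher in TSZ over DMSO, with a median log2 fold change of -0.28. Of all genes tested 24.2% were called lower and 25.9% higher. The median was -0.70 with total reads and -0.31 with quantile normalization. Many assembly factors were at lower levels than most members, of which 42 had a mean of 1000 to 5000 reads. Other genes at 100 to 500 reads had a median of -0.11, with 29.6% called lower. At 1000 to 5000 reads these values were 0.18 and 17.1%. The part of level in the difference between the lists was not tested. PET117, needed to assemble complex IV, had 19, 7.9 and 18.9 reads in TSZ cells and 84.4, 55.7 and 57.6 in DMSO cells (log2 -2.14, SE 0.34, adjusted p = 0.00017). TACO1, which activates translation of a mitochondrial subunit of complex IV, had a log2 fold change of -1.04 (adjusted p = 0.0003), and COX18, which inserts such a subunit into the membrane, of -0.98 (adjusted p = 0.00015). The 4 that rose include ECSIT (log2 0.63, adjusted p = 0.0099), a complex I factor also known from innate immune signalling, and the copper carriers COX17 (0.48, adjusted p = 0.0067) and COA6 (0.47, adjusted p = 0.013), none of which was called with total reads (0.22, 0.06 and 0.06). In TSZ+Nec-1s over TSZ 15 assembly factors were higher and 3 lower, with a median of 0.30, where 19.8% and 22.5% of all genes were. Without the 3 libraries that deviate with GC 25 and 7 were, where 3635 and 3734 of all genes were. PET117 was at 54.3, 59.9 and 53.8 reads in TSZ+Nec-1s cells.

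**Figure D5:**
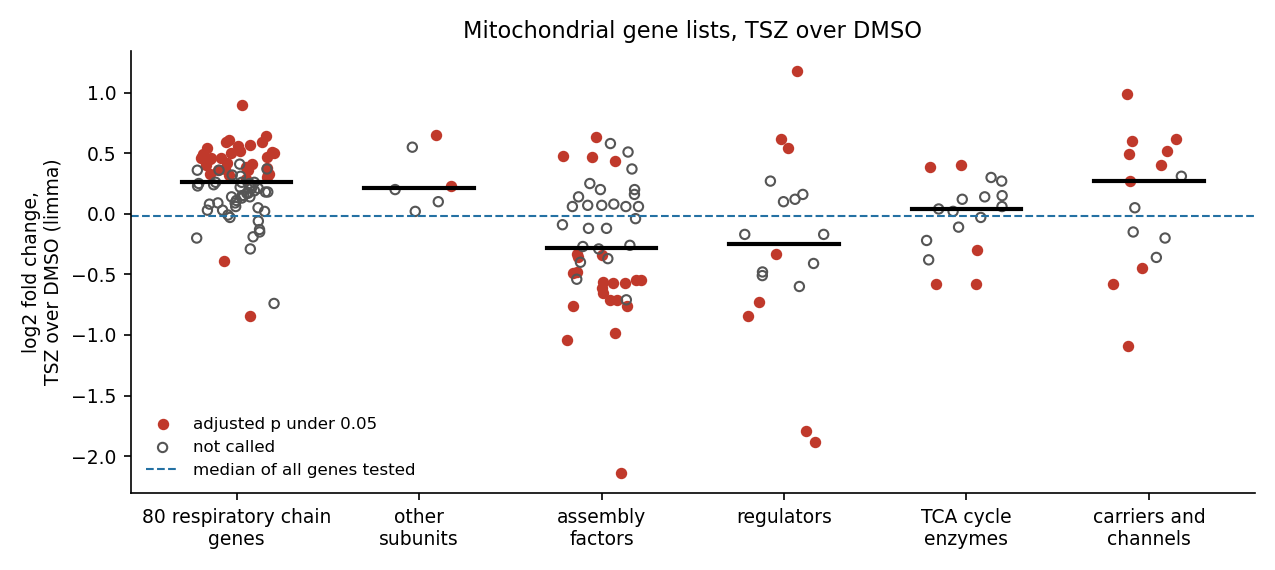
Log2 fold change for TSZ over DMSO (limma) of the 80 genes and of 5 related lists; each point is a gene, filled where the adjusted p was under 0.05, and bars are medians. The assembly factors have a median of -0.28 and the 80 genes one of 0.26, which is -0.15 with libraries scaled to total reads, where the assembly factors are at -0.70. Many assembly factors are at lower levels than most of the 80 genes, and the part of level was not tested.

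A list of 6 further genes that the symbol rule leaves out, which holds subunits, the carrier cytochrome c and the ATPase inhibitor ATPIF1, had 2 genes higher in TSZ cells: USMG5, a membrane subunit of complex V (log2 0.65, adjusted p = 0.00054), and NDUFAB1, the acyl carrier protein of complex I (log2 0.23, adjusted p = 0.04, but -0.18 with total reads). The call of NDUFAB1 was lost without DMSO c or TSZ b, adjusted p = 0.14 for both, TSZ c, 0.073, or 1 of 5 TNFα and TSZ+Nec-1s libraries, 0.054 to 0.061. The median of the 6 was 0.21, -0.20 with total reads. Cytochrome c itself, CYCS, had 2131, 1965 and 3747 reads in TSZ cells and 1355, 2658 and 1395 in DMSO cells, with the high values in TSZ c and DMSO b (log2 0.55, adjusted p = 0.092, but 0.0024 without DMSO b). Of 18 regulators of mitochondrial genes tested, 3 were higher and 5 lower, where 25.9% and 24.2% of all genes were. GABPB1, the partner of GABPA in the factor GABP, had 680, 649 and 802 reads in TSZ cells and 262, 412 and 284 in DMSO cells (log2 1.18, SE 0.16, adjusted p = 4.4e-05). GABPA, the partner that binds DNA, averaged 157 and 158 reads in TSZ and DMSO cells, with the high values in TSZ c and DMSO b, and was not called (log2 0.10, SE 0.57, adjusted p = 0.90). NRF1 averaged 228 reads in TSZ cells and 306 in DMSO cells and missed the threshold (log2 -0.41, adjusted p = 0.052). It was lower in TSZ than in TNFα cells (log2 -0.50, adjusted p = 0.023). MYC and YY1 were higher as well (log2 0.62 and 0.54, adjusted p = 0.00023 and 0.0068), but with total reads were at 0.21 and 0.13 and not called. PPARGC1B, a coactivator of mitochondrial biogenesis, had 52.4, 49.7 and 39.9 reads in TSZ cells and 144, 178 and 170 in DMSO cells (log2 -1.79, SE 0.17, adjusted p = 2e-06). MTERF2 (-1.88, adjusted p = 0.0028) and MTERF4 (-0.84, adjusted p = 8e-05), both of the MTERF family of mitochondrial proteins, fell too. The median of the 18 was -0.25. Leaving out the 3 libraries that deviate with GC made 4 higher and 8 lower, where 3803 and 3370 of the 11710 genes were.

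Of 17 enzymes of the citric acid cycle and its entry, 2 were higher (CS, log2 0.40, and IDH3G, 0.39, which were at -0.01 and -0.02 with total reads and, for CS, at -0.10 with quantile normalization) and 3 lower (IDH3A, -0.58, DLAT, -0.58, and FH, -0.30), with a median of 0.04 (-0.38 with total reads). Of all genes 25.9% were called higher and 24.2% lower. Leaving out the 3 libraries that deviate with GC made 4 enzymes higher and 5 lower, and 8 and 5 of the 15 carriers described next. Of the 11710 genes 3803 and 3370 were then higher and lower. The calls of IDH3G, DLAT and FH were lost without TSZ a (adjusted p = 0.12, 0.06 and 0.072) or TSZ b (0.092, 0.064 and 0.08), that of IDH3G also without DMSO b (0.10), TSZ+Nec-1s a (0.052) or TSZ+Nec-1s c (0.051) and that of FH without DMSO c (0.079). Among 15 carriers and channels of the mitochondrial membranes 7 were higher and 3 lower (median 0.27, but -0.14 with total reads and -0.08 with quantile normalization). The adenine nucleotide carrier SLC25A6 had 9380, 9017 and 7833 reads in TSZ cells against 5082, 3584 and 4669 in DMSO cells (log2 0.99, SE 0.12, adjusted p = 2.3e-05), and the phosphate carrier SLC25A3 (0.62, adjusted p = 4.6e-05) and CHCHD2 (0.60, adjusted p = 0.0017) rose too. SLC25A12 (-1.09, adjusted p = 2.9e-05), SLC25A11 (-0.58, adjusted p = 0.0058) and SLC25A4 (-0.45, adjusted p = 0.016, but 0.053 without TSZ a and 0.051 without TSZ c) fell.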

How the data were processed

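PolyA RNA of HT-29 cells was sequenced in 12 libraries, grouped by their labels. Per the methods of the authors, alignment was to hg38 by STAR, counting per gene by HTSeq without strand, and scaling by DESeq. The 6 deposited tables give, per gene, the mean scaled count of both groups compared, which is the only signal used here. Their columns of fold changes, log2 ratios and p-values hold the authors' own comparisons and were not used. The paper and the labels name different extraction and library kits.

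A group's mean is the mean of 3 whole counts, each divided by its library's size factor, and it is identical in the group's 3 tables. The step of each library was found from genes with few reads. Whole reads were then solved per gene, in full up to a mean of 300 and above it within 0.25 to 2.5 times the group mean, and kept where a single solution existed. All 88 matched symbols were solved. Size factors recomputed from these reads differed by at most 0.176%. Estimated totals were 8825061 to 12730029 reads, and solved genes hold 84.81% to 96.02% of them. Members with few reads have the least precise values. Both steps were tested on simulated data.

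The test was limma 3.58.1 (R 4.3.3) on log2 reads (offset 0.5) with voom weights, the recovered size factors, 4 groups and 12 libraries in 1 fit. It covered 11710 genes with a mean of at least 10. P-values were two-sided and adjusted by Benjamini-Hochberg. Tables and figures used Python 3.11.15, matplotlib 3.10.9, scipy 1.17.1, pandas 2.3.3 and numpy 2.4.6. Transcript lengths and overlaps came from GENCODE 44 and promoters from RefSeq. The alternatives were other scalings, filters, offsets and fits, a GC correction, each library left out, and, chosen after the data were seen, all 3 libraries that deviate with GC left out. The GC correction takes out the trend with GC of each library's deviation from its own group mean. It narrows the spread within groups, which raises the number of calls over all genes, and cannot correct a GC difference between groups. In complex IV the calls fell for TSZ over DMSO and for TSZ+Nec-1s over TSZ.

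Any member may be named, and 1 result is not reported here. Given in full are, per complex, up to 4 called genes with the largest change for TSZ over DMSO and up to 3 for TSZ+Nec-1s over TSZ, the highest level per kb, the SDH genes, paralogs, and up to 3 genes a direction in each related list. Members and lists were chosen with earlier results of these data known.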

Additional observations from a re-analysis of the deposited data

How the results depend on the processing

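No paired analysis was possible because the recovered libraries cannot be tied to the replicate numbers of the labels. Scaling to total reads gave, for TSZ over DMSO, 1 member higher, 18 lower and a median of -0.15 (all genes 1644, 5685 and -0.43). For TSZ over TNFα it gave 2, 11 and -0.08 (all genes 1468, 4966 and -0.33). For TSZ+Nec-1s over TSZ it gave 14, 0 and 0.09 by limma (all genes 4941, 1368 and 0.35). For TSZ+Nec-1s over DMSO 2 were higher and 1 lower (all genes 717 and 1266). Quantile normalization gave 7, 8 and 0.06 (all genes 2342, 3380 and -0.12), then 8, 8 and 0.08 (2046, 3053 and -0.09). It then gave 6, 4 and -0.06 (2574, 2074 and 0.07), and 2 higher and 1 lower in the last (748 and 895). Without the 3 libraries that deviate with GC, an alternative chosen after seeing the data, TNFα over DMSO had 1 higher, TSZ over DMSO 39 higher and 5 lower, TSZ+Nec-1s over DMSO 10 and 21, TSZ over TNFα 39 and 4, TSZ+Nec-1s over TNFα 10 and 14, and TSZ+Nec-1s over TSZ 7 and 53. In the same order, all genes had 824 higher, then 3803 and 3370, 3147 and 2703, 3542 and 3013, 2583 and 2242, and 3635 and 3734. After removal of each library's GC trend, TNFα over DMSO had 3 higher, where 1285 of all genes were. TSZ over DMSO had 42 higher and 3 lower, where 3878 and 3818 of all genes were. TSZ over TNFα had 36 higher and 3 lower (all genes 3709 and 3458). TSZ+Nec-1s over TNFα had 5 higher and 1 lower (all genes 1960 and 1450). TSZ+Nec-1s over TSZ had 6 higher and 37 lower (all genes 3569 and 3503). With only the 2 groups in the fit, TSZ over DMSO had 15 higher and 1 lower, TSZ+Nec-1s over DMSO 1 higher, TSZ over TNFα 2 lower, and TSZ+Nec-1s over TNFα 7 higher and 1 lower. The count of higher members for TSZ over TNFα is not given here. Nor are counts over all genes for the fits with 2 groups, without weights or with the other filter. The unweighted fit on log2 of reads plus 1 gave 1 member higher for TSZ+Nec-1s over DMSO and 0 over TNFα, structural subunits alone gave 1 and 0, and a filter at a mean of 1 gave 0 over TNFα. The cause of these moves was not tested.

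Leaving out 1 library at a time gave 20 to 38 members higher and 1 to 4 lower for TSZ over DMSO (median 0.18 to 0.33), 15 to 29 and 1 to 2 for TSZ over TNFα (0.22 to 0.33), 1 to 3 higher and 12 to 29 lower for TSZ+Nec-1s over TSZ (-0.27 to -0.22), 1 to 3 and 0 to 10 for TSZ+Nec-1s over DMSO (-0.10 to 0.08), 0 to 1 and 0 to 0 for TSZ+Nec-1s over TNFα (-0.09 to 0.06), and 0 throughout for TNFα over DMSO (-0.07 to 0.10). Counts over all genes are not given for these fits. A change in the members' counts therefore cannot be told from a change in calls over all genes.

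With total reads as the scale these log2 fold changes for TSZ over DMSO turned their sign: ATP5B -0.17, ATP5G1 -0.28, ATP5G2 -0.06, ATP5G3 -0.24, ATP5J -0.08, ATP5J2 -0.02, COX6B1 -0.01, COX7A2L -0.05, NDUFB9 -0.03, SDHA -0.38, SDHB -0.19, SDHC -0.13, UQCRC1 -0.05, UQCRH -0.04 and UQCRHL -0.15, and SDHC for TSZ+Nec-1s over TSZ was at 0.07. With quantile normalization ATP5B was at -0.31, ATP5G1 at -0.05, ATP5G3 at -0.13, NDUFB9 at -0.16, SDHA at -0.42, SDHB at -0.03 and UQCRHL at -0.0. With 1 library left out, ATP5G1 ranged from -0.06 (without DMSO b) to 0.24, SDHA from -0.08 (without DMSO b, and -0.01 without TSZ a) to 0.12, and SDHD from -0.44 to 0.16 (without DMSO b, and 0.02 without TSZ a). Without the 3 libraries SDHA was at -0.01. With only the 2 groups in the fit 9 of 42 results for named genes lost their call, and with log2 of reads plus 5 and no weights 1 did. NDUFV2 and NDUFV3 for TSZ over DMSO kept sign and call in every fit run.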
